A study of Rattus norvegicus with 24 samples.

Results

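Allogeneic mesoangioblasts (MABs-allo) were compared with saline in the rat urethra 3d after simulated vaginal delivery (SVD). All samples that the labels place in these groups were taken, 4 MABs-allo and 4 saline samples of the 24 in the series, and 16474 of the 32883 genes in the table were compared, those whose normalized gene counts averaged 2 or more over the 8 samples. The rats were virgin female Sprague-Dawley animals labelled WT. Every one of them, saline controls included, had the injury, which crushes the pudendal nerve and distends the vagina, and then an injection into the aorta together with an anticoagulant and a vasodilator. The treated rats received mesoangioblasts and the controls saline alone. The cells came from hind limb muscle of 1 donor rat, were grown as a line and injected into other rats, and carried a lentiviral vector for green fluorescent protein and luciferase. Groups at 7d are set against each other only in the comparison of days. The limma fit took all 6 groups of the series, with the 7d groups and those given VEGF-transduced mesoangioblasts. Together these groups set the spread behind each limma p-value. The labels do not say how rats map to samples beyond 1 title per sample, so p-values measure the spread between samples.

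Mesoangioblasts are vessel-associated progenitors that can cross the vessel wall and join or support the repair of skeletal muscle. The external urethral sphincter is striated muscle around smooth muscle, urothelium and connective tissue, and it is supplied by the pudendal nerve. After crush, striated fibres lose their nerve contact. Damaged fibres regenerate from satellite cells, while macrophages and mast cells take part in the early inflammatory phase. A bulk urethra holds all these cells, and fewer cells of a type cannot be told apart from less RNA per cell.

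With all 8 samples, limma called 2021 genes. A call needed a Benjamini-Hochberg adjusted p under 0.05 together with an absolute log2 fold change over 1, both on the log2(count + 1) scale. Where a gene name is followed by a pair of values in parentheses, these are its log2 fold change and its adjusted p from limma with all 8 samples. Of these, 1550 (9.41% of the genes tested) were higher and 471 (2.86%) lower after MABs-allo. When saline replicate 6 was left out, the calls were 2171 higher (13.2%) and 688 lower (4.18%), and 1946 genes were called in the same direction with and without that sample. Groups did not overlap over the 8 samples at 1539 genes with MABs-allo above (9.34%) and at 851 with MABs-allo below (5.17%). The median log2 fold change of all genes was 0.09, and it was -0.17 when samples were scaled to the same total and -0.12 after quantile normalization. These scalings moved the calls with all 8 samples to 1136 higher and 1028 lower, and to 1267 higher and 984 lower. Single samples carried much of the count. It was 374 without saline replicate 8 (1.89% higher, 0.376% lower), 765 without MABs-allo replicate 1, 904 without MABs-allo replicate 3 and 1133 without saline replicate 9. Without both saline replicates 6 and 8, 6.08% of genes were higher and 1.12% lower. In a fit of these groups alone, limma called 5 genes with all 8 samples (Akap6, Immt, Filip1, Ankrd23 and AC134224.2, named after their values were seen, all higher) and 1758 without saline replicate 6. In a fit of the 3 groups of 3d it called 0 with all 8 samples, where 4257 genes had an unadjusted p below 0.05, and 1835 without saline replicate 6. On the recovered reads with all groups, DESeq2 called 1922 genes and edgeR 1380.

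A pair of saline samples stood apart. Saline replicate 6 lay between both groups. Over the 2859 genes called without it, it was nearer the MABs-allo mean than the mean of the other saline samples at 2045 genes (71.5%), which were 1695 of the genes called higher and 350 of those called lower. Saline replicate 8 had low levels of urothelial and smooth muscle genes. Its summed level of 69 urothelial and keratin genes was 7722 normalized counts against 106003 to 115737 in the other saline samples, and its summed level of 25 Schwann cell and myelin genes was 62851 against 17354 to 19781. Defining markers of urothelium (Upk3a, 90.2 to 5600.1 in saline and 3271 to 7519 after MABs-allo), smooth muscle (Myh11, 3387 to 49901 and 48194 to 54772), striated muscle (Ckm, 1594 to 8674 and 3302 to 19636) and endothelium (Cdh5, 739 to 1297 and 477 to 1149) were measured in all 8 samples, as the urethra label calls for. MABs-allo replicate 1 had the highest urothelial sum of the 8 samples (27321) and the lowest fibroblast sum (34890). Sequencing was shallower after MABs-allo, with 2170695 to 4491900 reads on genes against 4851797 to 5249467 in saline (p = 0.0286 in an exact permutation test, two-sided, which can go no lower with 4 samples in each group). Genes detected at equal depth were 14050 to 14735 and 13329 to 14617 (p = 0.171 from the same exact test).

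**Figure D1:**
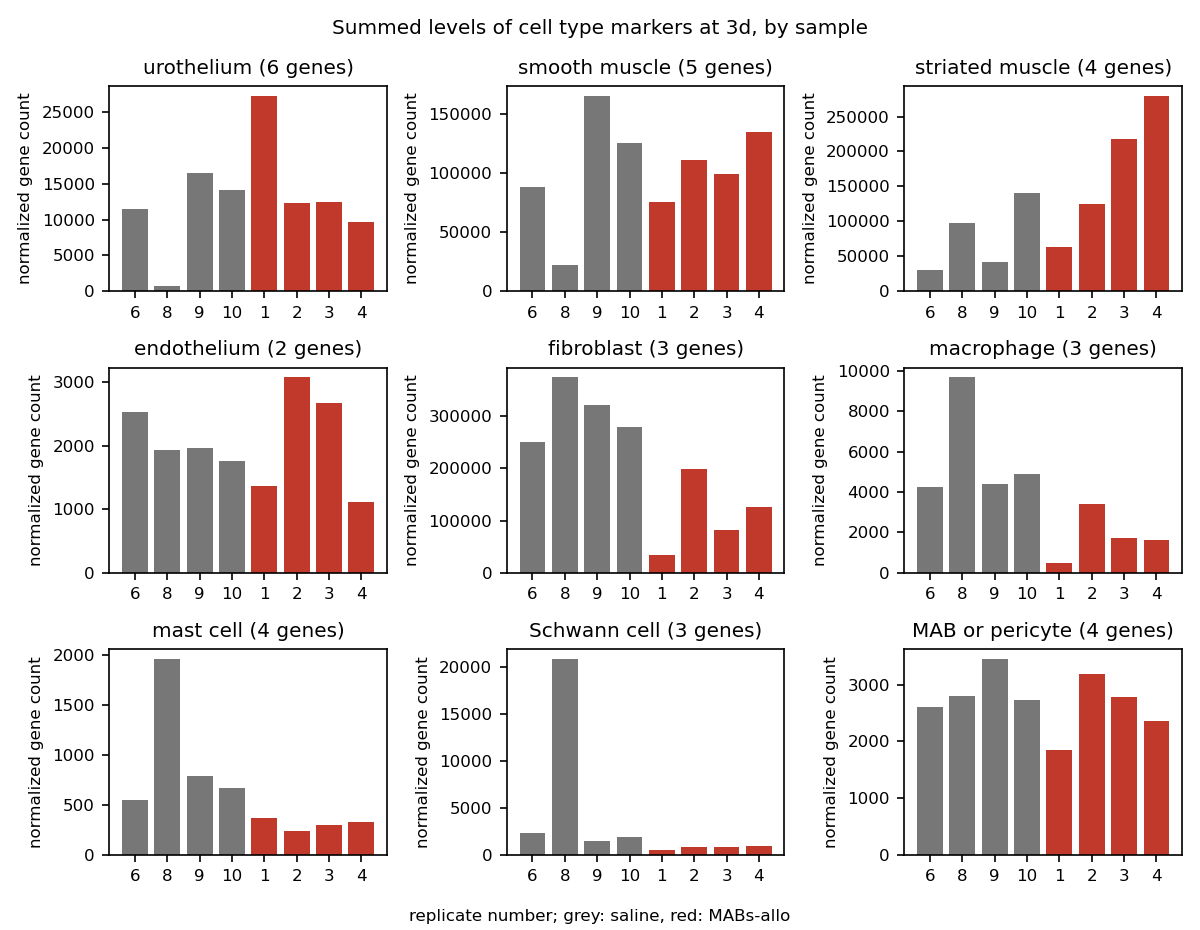
Summed normalized gene counts (vertical axis) of the markers of each cell type in the 4 saline samples (grey) and 4 MABs-allo samples (red) at 3d, by replicate number. The urothelial sum of saline replicate 8 is 780.0, and the fibroblast, macrophage, mast cell and Schwann cell sums of every MABs-allo sample lie below those of every saline sample. Col1a1 makes up most of the fibroblast sum.

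**Figure D2:**
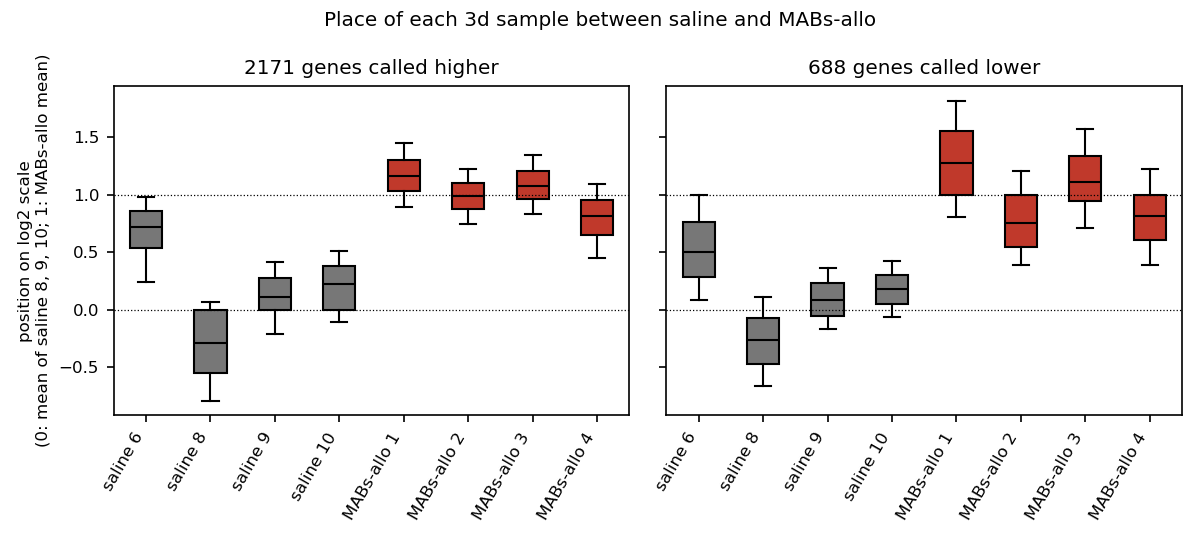
Position of each 3d sample between the mean of saline replicates 8, 9 and 10 (0) and the mean of MABs-allo (1) on the log2 scale, over genes called without saline replicate 6, as boxes with the median and whiskers at the 10th and 90th percentiles. The 7 samples used for the calls lie near their group by construction, and the median of saline replicate 6 is 0.72 for genes called higher and 0.50 for genes called lower.

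Part of the mast cell genes fell. Mast cells are tissue-resident immune cells that store proteases and histamine in granules. Of 17 mast cell genes tested, 8 fell and 0 rose, where 2.86% of all genes fell. The median log2 fold change was -3.07, or -0.31 when genes with 3 reads or fewer throughout a group entered at the bound that 3 reads per sample give. With saline replicate 6 left out, 10 fell and Rab27b, a gene of granule release chosen after its value was seen, rose. In that fit 4.18% of all genes fell and 13.2% rose. Without saline replicate 8, 4 fell, where 0.376% of all genes did. Summed over the whole list, in which Gata2 has most of the counts in every sample but saline replicate 8, the level was 2479 to 5605 normalized counts in saline and 2703 to 7398 after MABs-allo, with overlap and with a MABs-allo sample highest. Summed over the list without Gata2 and Kit, which were left out after their values were seen, it was 692 to 4852 normalized counts in saline and 293 to 667 after MABs-allo.

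Cpa3, the mast cell carboxypeptidase, had 62.0, 862, 236 and 155 normalized counts in saline replicates 6, 8, 9 and 10. After MABs-allo it had 0, 21.9, 9.23 and 0 in replicates 1 to 4. The highest MABs-allo sample lay below the lowest saline sample. Its log2 fold change came to -5.76 (SE 0.99, adjusted p = 0.00602), and -6.34 without saline replicate 6 (adjusted p = 0.000621). Hdc, which makes histamine, had 17.2, 122, 35.7 and 73.9 normalized counts in the saline samples and 0 in every MABs-allo sample, which puts it at least 3.04-fold lower against a limit of 3 reads per sample (adjusted p = 0.00602). Tpsb2, a tryptase, had 62.0, 576, 232 and 246 in saline and 0, 16.4, 0 and 21.7 after MABs-allo (log2 fold change -5.58, adjusted p = 0.00602). All 3 genes were called without saline replicate 8 as well. The related tryptase Tpsab1 and the chymase relative Mcpt1l1 fell too (log2 fold changes -4.79 and -4.93, adjusted p = 0.0133 and 0.00694), and Tpsab1 was not called without saline replicate 8 (adjusted p = 0.0603). Tpsb2 and Tpsab1, and the Mcpt1 genes, resemble each other in sequence, so their reads are uncertain between copies. Mcpt1l1 had 2481 normalized counts in saline replicate 8 against 114 to 145 in the other saline samples. Kit, the mast cell growth factor receptor, which interstitial cells of the tract carry too, had 246 to 382 in saline and 191 to 369 after MABs-allo (adjusted p = 0.853). Gata2, a transcription factor that other cells also use, had 435 to 3102 and 2161 to 6362 (adjusted p = 0.264). Neither passed the test.

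Promoters of Cpa3 and Hdc, the called mast cell genes with the lowest fitted log2 fold changes, are given from RefSeq (GRCr8), as windows of 300 bases around the start, with AGATAA, the letters that GATA factors read, in capitals where found on either strand. The file's own build is Rnor6.0.
Cpa3 (chr2:104673188-104673487, minus strand): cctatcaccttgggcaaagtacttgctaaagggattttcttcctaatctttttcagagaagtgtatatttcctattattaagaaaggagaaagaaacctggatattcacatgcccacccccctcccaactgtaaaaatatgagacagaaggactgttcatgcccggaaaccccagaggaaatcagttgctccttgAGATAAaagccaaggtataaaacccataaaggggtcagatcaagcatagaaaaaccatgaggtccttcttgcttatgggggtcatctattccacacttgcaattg
Hdc (chr3:134318655-134318954, minus strand): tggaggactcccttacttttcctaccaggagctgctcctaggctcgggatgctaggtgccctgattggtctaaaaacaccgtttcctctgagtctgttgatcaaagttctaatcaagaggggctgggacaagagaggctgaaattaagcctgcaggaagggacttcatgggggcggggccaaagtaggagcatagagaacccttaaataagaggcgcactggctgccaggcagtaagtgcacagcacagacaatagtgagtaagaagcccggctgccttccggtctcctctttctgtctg
The Cpa3 window holds 1 match, 55 bases before the start, and the Hdc window 0. Of the 19 mast cell genes with a promoter sequence, 3 hold the letters. Of all 33469 promoters, counted by entry and not by gene, 11.6% do.

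Macrophage and complement genes were lower as well. Macrophages clear debris after injury and make the C1q subunits of complement. Of 36 genes tested, 12 fell and 0 rose, where 2.86% of all genes fell, and 14 lay below saline without overlap, where 5.17% of all genes did. The median log2 fold change was -1.47. Cd53, a leukocyte tetraspanin, had 957, 1623, 776 and 648 normalized counts in the saline samples and 71.0, 334, 120.0 and 222 after MABs-allo. Every saline sample exceeded every MABs-allo sample, and replicate 1 was the lowest of its group. The log2 fold change of Cd53 was -2.56 (SE 0.58, adjusted p = 0.00974), and it was called without saline replicate 8. C1qb, a chain of C1q, had 2799, 5519, 3903 and 4782 in saline and 192, 2533, 859 and 1296 after MABs-allo (log2 fold change -2.26, adjusted p = 0.0109). C1qa moved with it (log2 fold change -1.74, adjusted p = 0.0156), and so did the lysozyme gene Lyz2 (-2.22, 0.016) and the folate receptor Folr2 of resident macrophages (-2.35, 0.0169). Cx3cr1, the fractalkine receptor, had 37.9, 39.2, 75.0 and 28.2 in saline and 0, 0, 27.7 and 5.42 after MABs-allo (adjusted p = 0.0205). Tyrobp, an adaptor of myeloid receptors, had 3749 to 5436 and 582 to 3293 and did not pass (adjusted p = 0.0694). The list had 11 falls without saline replicate 6, where 4.18% of all genes fell, and 2 without saline replicate 8, where 0.376% did. The summed level of the defining markers Cd68, C1qa and Csf1r was 4232 to 9670 normalized counts in saline and 462 to 3408 after MABs-allo.

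MHC genes present antigen to T cells. Of 23 tested, 6 fell and 1 rose, beside 2.86% and 9.41% of all genes. Those that fell belong to class II, which macrophages and other presenting cells carry, and without saline replicate 8 only RT1-Db1 among them was called. RT1-Db1, a class II beta chain, had 3168, 11367, 4653 and 1745 normalized counts in saline and 554, 722, 1154 and 987 after MABs-allo, without overlap (log2 fold change -2.33, adjusted p = 0.00843). Cd74, the class II invariant chain, was lower (log2 fold change -1.64, adjusted p = 0.0152), as were RT1-DMa (-1.84, 0.0302) and RT1-Ba (-1.49, 0.0465). The gene that rose was Nlrc5, which activates class I genes, with 0 in every saline sample and 7.10, 10.9, 46.2 and 21.7 after MABs-allo (at least 1.98-fold higher, adjusted p = 0.0083). Of 35 cytokine and chemokine genes 2 fell, where 2.86% of all genes did, and neither of them was called without saline replicate 8. They were Ccl21, which draws lymphocytes and dendritic cells to lymphatics (log2 fold change -1.83, adjusted p = 0.0399), and Cxcl14 (-1.83, 0.0417). Il33, an alarmin, had 3656 to 10610.4 in saline and 1676 to 5252 after MABs-allo (adjusted p = 0.196). Of 15 neutrophil genes limma called 0 in either fit, with 0 at an unadjusted p below 0.05 over all 8 samples, and edgeR and DESeq2 called 0 with all 8 samples. Without saline replicate 6 edgeR called 0 and DESeq2 called 1 lower, S100a9 of calprotectin. In the lymphocyte list of 24 the T cell co-receptor Cd28 rose (adjusted p = 0.0117), and in the interferon list of 29 Xaf1 rose (adjusted p = 0.0209). Both shares were below the 9.41% of all genes that rose.

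Endothelial genes were more often lower than higher. Of 31 tested, 8 fell and 1 rose, where 2.86% of all genes fell. Lyve1, a receptor of lymphatic vessels and of some macrophages, had 4256 to 11187 normalized counts in saline and 845 to 3786 after MABs-allo (log2 fold change -1.43, adjusted p = 0.046). The apelin receptor Aplnr (-1.73, 0.0368), the fenestral protein Plvap (-1.55, 0.0433) and P-selectin Selp (-1.47, 0.0211) fell, and so did the angiopoietin co-receptor Tie1 in the VEGF and angiopoietin list (-1.33, 0.0143). Saline replicate 8 had the highest Aplnr, Plvap and Lyve1, and none of the endothelial genes was called without it (62 genes were called lower in all). The summed level of the endothelial markers Cdh5 and Vwf overlapped, at 1752 to 2524 in saline and 1117 to 3069 after MABs-allo. Cd34, which marks endothelium and some progenitors, was the gene that rose, with 771, 15.7, 32.2 and 21.1 in saline and 469, 1373, 803 and 174 after MABs-allo. Saline replicate 6 lay within the MABs-allo range there, and the log2 fold change was 3.31 (adjusted p = 0.0274) with it and 4.57 (adjusted p = 0.000965) without it.

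Of 16 genes that mark pericytes and mesoangioblasts, the injected cell type, 1 rose (Notch3) and 2 fell (Anpep and Foxc2). Of all genes, 9.41% rose and 2.86% fell. Alpl, the alkaline phosphatase by which mesoangioblasts are isolated, had 127 to 286 normalized counts in saline and 174 to 582 after MABs-allo (adjusted p = 0.344). Pdgfrb (957 to 1469 and 653 to 1089), Cspg4 (396 to 868 and 256 to 743) and Rgs5 (760.4 to 939.9 and 469 to 1072), all of mural cells, did not pass the test. Notch3, a receptor of mural cells, had 13.8, 0, 0 and 3.52 in saline and 334, 224, 185 and 16.3 after MABs-allo (log2 fold change 5.45, adjusted p = 0.00729). The groups did not overlap, and MABs-allo replicate 4 was near the saline level. Anpep, an aminopeptidase of pericytes and other cells, fell (log2 fold change -1.30, adjusted p = 0.0107).

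Matrix genes fell more often than they rose. Of 54 collagen and matrix genes 8 fell and 4 rose, where 2.86% and 9.41% of all genes did, and the median log2 fold change was -0.74. The share that rose was below that of all genes. Fbln1, a fibulin of the connective tissue, had 5464, 13433, 13302 and 7992 normalized counts in saline and 632, 4678, 2566 and 3477 after MABs-allo (log2 fold change -2.05, adjusted p = 0.0163). Prelp, a small proteoglycan, had 2875 to 5836 and 511 to 1476 (log2 fold change -1.86, adjusted p = 0.00651), and it was the matrix gene that was called lower without saline replicate 8. The fibrillar collagens Col1a1 and Col3a1 had log2 fold changes of -1.85 and -1.59 and did not pass (adjusted p = 0.0653 and 0.0756), with 23232 to 152909 normalized counts of Col1a1 after MABs-allo and 208056 to 319269.5 in saline. The matrix genes that rose were Col4a2, Lamc1 and Nid1, of basement membranes, and Thbs1, a matricellular regulator. Thbs1 had 789, 3.92, 7.15 and 3.52 in saline and 447, 2046, 1034 and 179 after MABs-allo. Saline replicate 6 was again within the MABs-allo range, here and at Nid1 (8233 against 321 to 834 in the other saline samples). The log2 fold change of Thbs1 was 5.05 (adjusted p = 0.0177), and 6.83 without that sample (adjusted p = 0.000571). No rising matrix gene was called without saline replicate 8. The summed level of the fibroblast markers Col1a1, Pdgfra and Dcn, which belong to the matrix-making cells, was 250453 to 374293 in saline and 34890 to 199269 after MABs-allo. Col1a1, a collagen named above, made up most of this sum in every sample. Pdgfra overlapped, with 1513 to 2593 in saline and 483 to 2585 after MABs-allo (adjusted p = 0.292), and Dcn was lower (-1.29, 0.0433). The part of this sum in the falls was not tested.

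Antioxidant genes that fell included secreted enzymes. Of 34 tested, 4 fell (Sod3, Gpx3, Gpx7 and Prdx4) and 1 rose (Gsr), where 2.86% of all genes fell. Sod3, the extracellular superoxide dismutase, had 3192, 11402, 10357 and 6626 normalized counts in saline and 930.1, 2172, 1717 and 2359.8 after MABs-allo. No sample overlapped, and saline replicate 6 was the lowest of the saline samples. The log2 fold change was -2.06 (SE 0.37, adjusted p = 0.00602), and Sod3 was the antioxidant gene that was called without saline replicate 8. The plasma glutathione peroxidase Gpx3 fell (-1.70, 0.0467), and glutathione reductase Gsr rose (2.47, 0.00969). Cytosolic Sod1 had 5829.5 to 6812 and 4191 to 5902 (adjusted p = 0.226).

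More genes of developing muscle rose than fell. Satellite cells carry Pax7 and Pax3, and regenerating fibres pass through embryonic and neonatal myosins before adult ones. Of 39 genes of this list, 12 rose and 1, Bmp4, fell, where 9.41% of all genes rose, and the median log2 fold change was 1.08. Without saline replicate 6, 16 rose and 2 fell, where 13.2% of all genes rose and 4.18% fell. Without saline replicate 8, where 1.89% of all genes rose, only 1 rose, Myh8. This neonatal myosin had 671, 58.8, 307 and 2019.9 normalized counts in saline and 7015, 5859, 21039 and 7789.9 after MABs-allo. No sample overlapped, and MABs-allo replicate 3 was far above its group. The log2 fold change was 4.51 (SE 0.76, adjusted p = 0.00602) and 4.76 without saline replicate 6 (adjusted p = 0.000853). The embryonic myosin Myh3 had 5444, 227, 733 and 1974 in saline and 3458, 8852, 6093 and 4166 after MABs-allo, and saline replicate 6 lay inside the MABs-allo range (log2 fold change 2.19, adjusted p = 0.0433). Myosin genes resemble each other in sequence, and reads may be uncertain between them.

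Regulators of satellite cells were at low levels. Pax7 had 20.7, 0, 3.57 and 7.04 normalized counts in saline and 49.7, 104, 18.5 and 27.1 after MABs-allo, with overlap between groups (adjusted p = 0.0445). Pax3 had 0, 0, 3.57 and 3.52 and 7.10, 49.2, 64.6 and 27.1, without overlap (adjusted p = 0.0114). Eya1, a co-activator in muscle progenitors, had 41.3, 0, 0 and 0 and 21.3, 131, 295 and 16.3 (adjusted p = 0.0189). Mymx, needed for myoblast fusion, had 0 to 24.6 and 21.7 to 148 (adjusted p = 0.0261). At these levels 1 read was worth 3.44 to 3.92 normalized counts in saline and 5.42 to 9.23 after MABs-allo, so that values below about 30 rest on few reads. Genes with more reads included Met, the receptor of hepatocyte growth factor, with 444, 11.8, 42.9 and 73.9 in saline and 1072, 432, 1366 and 542 after MABs-allo (log2 fold change 3.54, adjusted p = 0.0205), Igf2, a growth factor of muscle differentiation, with 141, 47.0, 57.2 and 130.2 and 433, 509, 434 and 439 (log2 fold change 2.42, adjusted p = 0.0122), and the integrin Itga4 (3.45, 0.0235). Igf2 did not overlap between groups.

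Of 41 structural genes of the striated fibre, 15 rose and 0 fell, where 9.41% of all genes rose, and the median log2 fold change was 1.44. There were 11 rises without saline replicate 6, without replicate 8 there were 8, and without both there were 7. Of all genes, 13.2%, 1.89% and 6.08% rose in these fits. Myom1, which crosslinks thick filaments at the M-band, had 196, 3.92, 107 and 222 normalized counts in saline and 1086, 1056, 1763 and 1362 after MABs-allo. The lowest MABs-allo sample was above the highest saline sample. Its log2 fold change was 4.21 (SE 0.81, adjusted p = 0.0063). Its relative Myom2 (4.62, 0.00797), the voltage sensor Cacna1s (3.72, 0.0159) and, outside the list, the muscle chloride channel Clcn1 rose. Clcn1 was at 0 in every saline sample and at 21.3, 27.4, 92.3 and 65.1 after MABs-allo, at least 4.75-fold higher (adjusted p = 0.00602). The contractile genes of highest level that were not called were Acta1 and Myl1. Acta1, skeletal actin, had 13828 to 72658 in saline and 25709.5 to 129158 after MABs-allo (adjusted p = 0.221), and Myl1, a myosin light chain, had 11452 to 48260.2 and 20065 to 88098 (adjusted p = 0.116). The summed level of the striated muscle markers overlapped between groups, at 29702 to 141096 in saline and 62971 to 279684 after MABs-allo, and its part in the rises was not tested.

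At the neuromuscular junction 2 of 17 genes rose and 0 fell, a share near the 9.41% of all genes that rose, and without saline replicate 8 only Musk was called. Musk, the kinase that clusters acetylcholine receptors under the nerve ending, had 41.3, 0, 3.57 and 0 normalized counts in saline and 63.9, 175, 222 and 65.1 after MABs-allo. The groups did not overlap, and saline replicate 6 was the highest saline sample. The log2 fold change was 4.93 (SE 1.08, adjusted p = 0.00825), and 6.10 without saline replicate 6 (adjusted p = 0.00058). Utrn, utrophin of the junction, had 2140.1 to 4115 and 4275 to 10089 (log2 fold change 1.02, adjusted p = 0.018, and 0.0842 without saline replicate 8). Nos1, the neuronal nitric oxide synthase, which is also a sarcolemmal enzyme of fast fibres, had 51.6, 0, 0 and 0 in saline and 185, 219, 222 and 81.4 after MABs-allo (log2 fold change 5.94, adjusted p = 0.00602). Only saline replicate 6 had Nos1 reads among the saline samples, and it was below every MABs-allo sample.

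The Musk promoter is given because Musk is the junction gene called with and without each of saline replicates 6 and 8. CAGCTG, the E-box letters that myogenic factors read, is in capitals.
Musk (chr5:77853486-77853785, plus strand): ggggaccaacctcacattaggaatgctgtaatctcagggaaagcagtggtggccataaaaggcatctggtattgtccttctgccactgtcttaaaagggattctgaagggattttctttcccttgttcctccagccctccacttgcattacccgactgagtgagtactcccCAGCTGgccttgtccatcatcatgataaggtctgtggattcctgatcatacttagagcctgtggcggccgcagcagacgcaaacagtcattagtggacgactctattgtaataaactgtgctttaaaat
The letters are their own reverse complement, so 1 search covers both strands, and they occur once in this window, 79 bases before the start. They occur in promoters of 16 of 34 striated fibre genes, 8 of 30 myogenic genes and 5 of 12 junction genes. Of all promoters, counted by entry and not by gene, 15.1% hold them.

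Smooth muscle genes gave 5 rises and 1 fall of 30, where 9.41% of all genes rose and 2.86% fell, with the calcium channel Cacna1c among the rises. Without saline replicate 8 there were 3 rises and 0 falls, where 1.89% of all genes rose and 0.376% fell. Synpo2, an actin-binding protein of the contractile apparatus, had 1384, 15.7, 350.2 and 457 normalized counts in saline and 2989, 2949, 4228 and 1915 after MABs-allo (log2 fold change 3.56, adjusted p = 0.0117). Saline replicate 8 was the lowest sample at Synpo2, and the gene was called without it. The potassium channel Kcnma1 (2.34, 0.013) and Pgm5 of adherens junctions (3.85, 0.0152) rose, and Pgm5 was not called without saline replicate 8 (adjusted p = 0.0708). The muscarinic receptor Chrm3 fell, from 27.5, 122, 154 and 91.5 to 21.3, 16.4, 9.23 and 10.8 normalized counts (adjusted p = 0.0127, and 0.0561 without saline replicate 8). Myh11, smooth muscle myosin, had 26803, 3387, 49901 and 35796 in saline and 51490.1, 49051, 54772 and 48194 after MABs-allo and did not pass (adjusted p = 0.0926). The markers Acta2, Cnn1, Tagln and Des did not pass either (log2 fold changes -0.34, 0.30, -0.10 and -0.28, adjusted p = 0.614, 0.818, 0.907 and 0.703). The summed level of the smooth muscle markers overlapped, at 22471 to 165791 in saline and 75474 to 135461 after MABs-allo.

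Axon and dendrite genes gave 10 rises and 2 falls of 66, where 9.41% of all genes rose and 2.86% fell. Without saline replicate 8 only Plxnb1 was called. Their median log2 fold change was 0.10, and -0.18 after scaling to the same total. Plexin and netrin genes, which guide axons, were among those that rose. Plxnb1 had 44.8, 0, 0 and 0 normalized counts in saline and 192, 109, 240.0 and 38.0 after MABs-allo (log2 fold change 5.51, adjusted p = 0.00733). Saline replicate 6 exceeded MABs-allo replicate 4, and the other saline samples were at 0. Ntn1, netrin 1, had 34.4, 0, 10.7 and 17.6 and 206, 289.9, 175 and 92.2, without overlap (log2 fold change 4.24, adjusted p = 0.0127). Robo1 and Plxna4 rose (log2 fold changes 5.29 and 4.51, adjusted p = 0.0159 and 0.0132). Efnb3, a ligand in axon guidance, and Dio3, which the list holds though it inactivates thyroid hormone, fell (adjusted p = 0.0456 and 0.0125), with 21.3, 27.4, 9.23 and 16.3 normalized counts of Dio3 after MABs-allo and 86.1, 333, 122 and 66.9 in saline. Of 23 Schwann cell and myelin genes limma called 0 with all 8 samples, 10 had an unadjusted p below 0.05, and edgeR called 5 and DESeq2 5. Their median log2 fold change was -1.18. The summed level of the Schwann cell markers was 1426 to 20817 normalized counts in saline, highest in saline replicate 8, and 469 to 879 after MABs-allo, without overlap.

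Regulators of the GTPases that steer the actin cytoskeleton formed a long list. Of 107 tested, 29 rose and 1, Rhoc, fell, where 9.41% of all genes rose and 2.86% fell. Without saline replicate 6 it was 36 and 2, where 13.2% of all genes rose and 4.18% fell. Without saline replicate 8, 4 rose, where 1.89% of all genes did. Among these were Arhgef12, Arhgef17 and Trio, named after their values were seen. Arhgap31, a GTPase-activating protein, had 65.4, 0, 3.57 and 3.52 normalized counts in saline and 199, 241, 138 and 119 after MABs-allo. The groups did not overlap, and saline replicate 6 stood apart from its group. Its log2 fold change was 4.79 (adjusted p = 0.0109). Arhgef17 (5.48, 0.00729), Arhgap26 (4.79, 0.0147) and Srgap1 (2.33, 0.0283) were higher too. The abundant GTPase Cdc42 and the kinase Rock1 had 3677 to 12096 and 3300.3 to 11479 in saline and 11029 to 15764 and 11642 to 13312 after MABs-allo, and neither passed (adjusted p = 0.142 and 0.207). Saline replicate 8 held the lowest value of both.

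Chromatin genes rose in each of 4 lists, and 0 fell. Among genes of DNA methylation 7 of 19 rose, of histone acetylation 7 of 39, of histone methylation 20 of 70, and of nucleosome remodelling 7 of 33, where 9.41% of all genes rose. These were 8, 9, 25 and 10 without saline replicate 6, where 13.2% of all genes rose. Without replicate 8 they were 0, 1, 5 and 1, where 1.89% of all genes rose. The medians of the log2 fold changes were 0.82, 0.37, 0.70 and 0.72, and they were 0.55, 0.10, 0.42 and 0.45 after scaling to the same total, where the median of all genes was -0.17. Tet2, which oxidises methylcytosine, had 813, 172, 689.7 and 655 normalized counts in saline and 2889.8, 1220.0, 1542 and 1552 after MABs-allo (log2 fold change 1.76, adjusted p = 0.0156). Its relatives Tet1 and Tet3 and the methyltransferase Dnmt3a rose (log2 fold changes 3.48, 2.65 and 1.39, adjusted p = 0.0364, 0.0188 and 0.0281). None of these 4 genes was called without saline replicate 8.

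Kat6a, a histone acetyltransferase, had 1064, 172, 325 and 387 normalized counts in saline and 3109.9, 1855, 2225 and 1617 after MABs-allo (log2 fold change 2.45, adjusted p = 0.00825). Kmt2c, which methylates histone H3 at enhancers, had 1047, 74.5, 332 and 429 and 3699, 1756, 2502 and 2474 (log2 fold change 2.95, adjusted p = 0.00701). Neither gene overlapped between groups, saline replicate 6 was the highest and replicate 8 the lowest of the saline samples at both, and both were called without replicate 8. Setd1b, of the same enzyme family, had 55.1, 0, 7.15 and 0 and 362, 317, 665 and 65.1 (log2 fold change 5.85, adjusted p = 0.00651). The co-activator Ncoa3, the deacetylase Hdac4, the methyltransferase Ehmt1 and the demethylase Kdm6a rose as well (log2 fold changes 4.38, 2.94, 3.27 and 1.31). Among remodellers Srcap, Chd9 and Pbrm1 rose (log2 fold changes 4.43, 2.06 and 1.69, adjusted p = 0.0139, 0.00897 and 0.00897). Of 43 splicing genes 11 rose, where 9.41% of all genes did, such as Hnrnpa2b1 (2.62, 0.0106), Srsf5 (2.33, 0.0176) and Srrm1 (1.51, 0.0183). These 3 were not called without saline replicate 8 (adjusted p = 0.0531, 0.0844 and 0.0935), where 1 splicing gene was, Hnrnpul2, named after its value was seen. Of 16 genes of transcription elongation 3 rose, where 9.41% of all genes did. They were the kinases Cdk13 and Cdk12 (2.02, 0.0106) and the Mediator subunit Med13 (2.40, 0.00701). Cdk12 and Med13 were called without saline replicate 8.

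**Figure D3:**
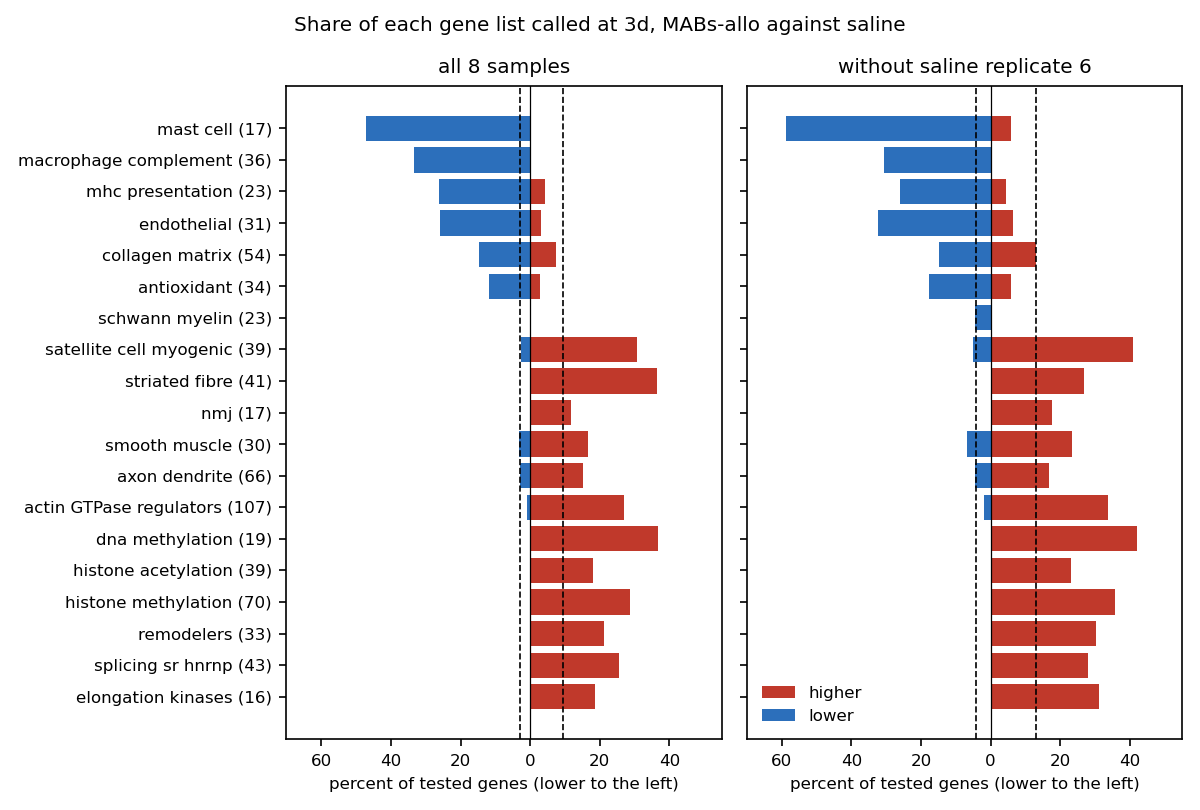
Percent of the tested genes of each list called higher (red, to the right) or lower (blue, to the left) after MABs-allo, with all 8 samples and without saline replicate 6. Dashed lines mark the share of all tested genes, 9.41% higher and 2.86% lower with all 8 samples, and numbers beside the names are the genes tested.

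**Figure D4:**
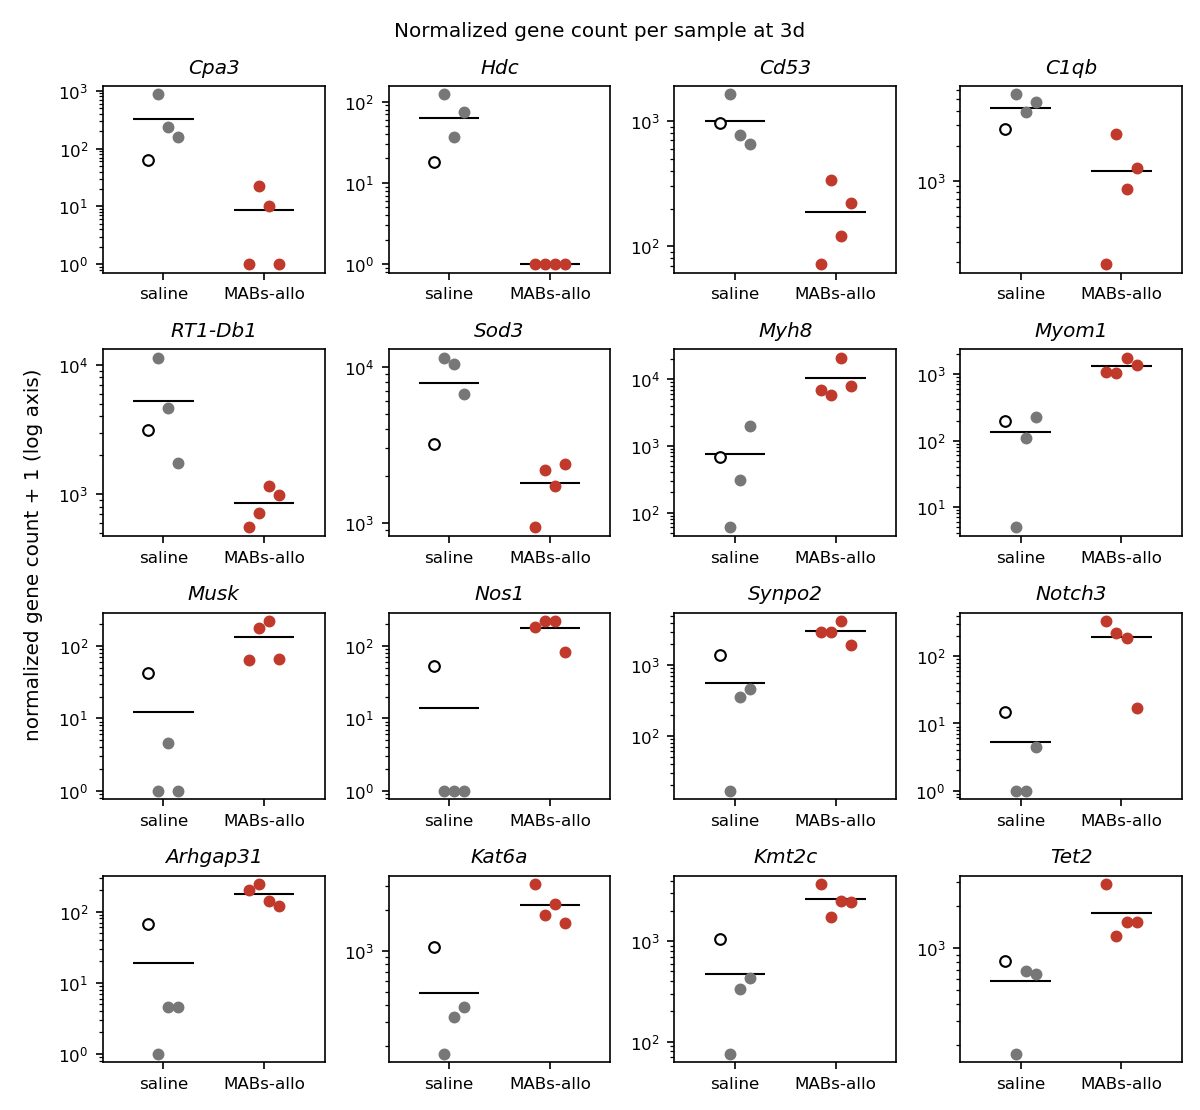
Normalized gene count plus 1 (log axis) of 16 genes in the 4 saline samples (grey, replicate 6 as an open circle) and 4 MABs-allo samples (red), with lines at the group means. Hdc is at 0 in all MABs-allo samples, and saline replicate 6 is the saline sample nearest MABs-allo at Nos1, Kat6a and Kmt2c.

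Among mitochondrially encoded and small noncoding RNA, some entries differed between groups and others did not pass a test. The 2 AY172581 entries with the highest level, chosen after their values were seen, took 14.6% to 25.6% of the reads after MABs-allo, 0.657% to 2.59% in saline replicates 8, 9 and 10, and 8.29% in saline replicate 6 (exact permutation over all 8 samples, p = 0.0286). The other AY172581 entries took 0.00469% to 0.0458% after MABs-allo and 0.0173% to 0.0205% in saline (p = 0.514 in the same exact test). AY172581 is the label under which the table lists 24 genes beside 13 named Mt-, and the files do not say which of them are ribosomal. AY172581.24 had 1321339.8, 77918, 232771 and 370384 normalized counts in saline and 4767186, 2429869.6, 3119468 and 3611814 after MABs-allo, and AY172581.9 had 177369, 47236, 51019 and 84236 and 1139385, 500546, 650926 and 575441. The Mt- genes together took 8.16% to 17.6% of the reads after MABs-allo and 11.1% to 17.2% in saline (p = 0.486 in the same exact test). Of the 32 mitochondrial genes tested 5 rose (both entries above, Mt-nd6, Mt-atp8 and Mt-nd4l) and 0 fell, where 9.41% of all genes rose. Mt-nd6, a complex I subunit, had 43.1 to 658 and 3277 to 5432 (log2 fold change 4.31, adjusted p = 0.00602), and Mt-atp6, an ATP synthase subunit, had 647837 to 1039869.8 and 596819 to 1498365 (adjusted p = 0.941). Of 229 small noncoding RNA genes 37 rose and 1, a copy of U6, fell, where 9.41% of all genes rose. Without saline replicate 8 it was 10 and 1, where 1.89% of all genes rose and 0.376% fell. Of the 229, 146 were at 3 reads or fewer throughout at least 1 group. They took 0.0263% to 0.165% of reads after MABs-allo and 0.0135% to 0.0264% in saline, with overlap (p = 0.0571 in the same exact test). These families have many near-identical copies, which makes the counts uncertain. Respiratory chain genes of the nucleus gave 0 rises and 2 falls of 86 (Cox6b2 and Ndufa12), and ribosomal protein genes 2 rises and 0 falls of 92 (Rpl19 and Rpl7l1). Both lists had smaller shares of rises and of falls than all genes, of which 9.41% rose and 2.86% fell. The part of the shares of reads in the other differences was not tested.

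By fitted log2 fold change, the largest rises among called genes without overlap, at a mean of at least 20 and with a symbol that 1 row holds, were those of AABR07052585.2 (log2 fold change 6.38, adjusted p = 0.00602), Pm20d2 (6.05, 0.00753), the transcriptional repressor Zhx2 (adjusted p = 0.00733, with 27.5, 0, 0 and 0 normalized counts in saline and 412, 148, 231 and 32.5 after MABs-allo), Nos1, Setd1b, Mir675, Clcn1 and Notch3. Mir675 had 13.8, 0, 0 and 0 normalized counts in saline and 71.0, 87.5, 295 and 38.0 after MABs-allo (log2 fold change 5.56, adjusted p = 0.0063). It is the gene of a microRNA that lies in the H19 transcript, and reads of a 3ʹ mRNA library on it are not the mature microRNA. The mature sequences, shown because this was the only microRNA gene among the largest rises, have their seeds (bases 2 to 8) in capitals (RefSeq, GRCr8, chromosome 1).
rno-miR-675-5p: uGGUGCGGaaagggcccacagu
rno-miR-675-3p: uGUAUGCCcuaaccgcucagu
The arms have different seeds. By the same ranking, falls beyond mast cell genes were those of Rgs20, a regulator of G protein signalling, with 17.2, 82.3, 32.2 and 38.7 in saline and 0 in every MABs-allo sample (at least 2.09-fold lower, adjusted p = 0.00729), LOC501233 (at least 2.45-fold, adjusted p = 0.00778) and Nfasc, a neurofascin of nodes of Ranvier (at least 2.60-fold, adjusted p = 0.0136, and 0.0714 without saline replicate 8). These 3 genes had 3 reads or fewer in each MABs-allo sample, so their place in the ranking depends on the pseudocount, and genes with more reads, such as Cd53 at 5.89-fold lower, exceeded these bounds.

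In glycolysis and hypoxia 6 of 33 genes rose and 2 fell, where 9.41% of all genes rose and 2.86% fell. Without saline replicate 8 it was 4 and 0, where 1.89% of all genes rose and 0.376% fell. Hexokinase Hk1 had 55.1, 0, 3.57 and 10.6 in saline and 291, 202, 249 and 108 after MABs-allo (log2 fold change 4.77, adjusted p = 0.00733). Hif3a was at 0 in every saline sample and at 14.2, 27.4, 9.23 and 5.42 after MABs-allo (adjusted p = 0.00603). These are few reads, and they put Hif3a at least 1.30-fold higher against a limit of 3 reads per sample. Ndrg1 and the vasodilator peptide Adm (-2.04, 0.0275) fell. Of 12 erythroid genes limma called 0 in either fit, with 0 at an unadjusted p below 0.05 over all 8 samples, and edgeR and DESeq2 called 0 as well. In the fit of only both groups without saline replicate 6, limma called 3 of them lower, the globins Hba-a3 and Hbb and the haem synthesis enzyme Alas2, named after their values were seen. In the cell cycle list 1 of 36 fell, a share near the 2.86% of all genes that fell. This gene was Pcna of the replication fork (log2 fold change -1.05, adjusted p = 0.0387). Pcna was not called without saline replicate 6 (adjusted p = 0.0558), where 1 gene of the list rose, the cyclin Ccnd2, named after its value was seen, nor without saline replicate 8 (adjusted p = 0.19). Among 45 urothelial and keratin genes 1 rose, where 9.41% of all genes did. It was the basal keratin Krt14 (4.15, 0.0437), with 0 in saline replicate 8. Of 20 glucocorticoid response genes 2 rose (Pdk4 and Hif3a, which the hypoxia list holds too), and of 24 immediate early genes 1 rose (Fosl2). Of 19 adipocyte genes 1 rose (Acaca) and 1 fell (Lipe). Beside these 3 lists, 9.41% of all genes rose and 2.86% fell. Of the 22 genes that the study displayed for cell-treated urethras at 3d, 13 rose and 3 fell, and without saline replicate 8 only 1 was called, Kat6a. The study chose those genes on these samples, and the count is not independent evidence.

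The difference between MABs-allo and saline was then compared between 3d and 7d, which asks whether it lasts. Limma found 0 genes with all samples, where 2245 genes had an unadjusted p below 0.05, edgeR called 0 and DESeq2 called 95. Without saline replicate 6, limma found 129 genes (0.783% of those tested), 116 with a higher and 13 with a lower difference at 3d than at 7d, and only 1, Zfp319 (named after its value was seen), when saline replicate 8 was left out too. Hdc had 44.0, 77.2, 43.5 and 18.9 normalized counts in saline at 7d and 49.6, 36.4, 51.7 and 83.0 after MABs-allo at 7d. The groups overlapped at 7d and did not at 3d. Between the days the log2 differences of Hdc differed by -6.48 without saline replicate 6 (adjusted p = 0.0303, and 0.183 with all samples). Tpsb2 overlapped at 7d as well, with 142 to 636 and 158 to 297 at 7d (adjusted p = 0.0412, and 0.183 with all samples). Sod3 had 7117 to 11987 in saline and 5114 to 10496 after MABs-allo at 7d (adjusted p = 0.0412, and 0.195). Musk had 7.47 to 13.5 and 0 to 20.8 at 7d (adjusted p = 0.0252, and 0.183). Nos1 had 0 to 4.98 and 0 to 4.15 at 7d (adjusted p = 0.0212, and 0.186).

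**Figure D5:**
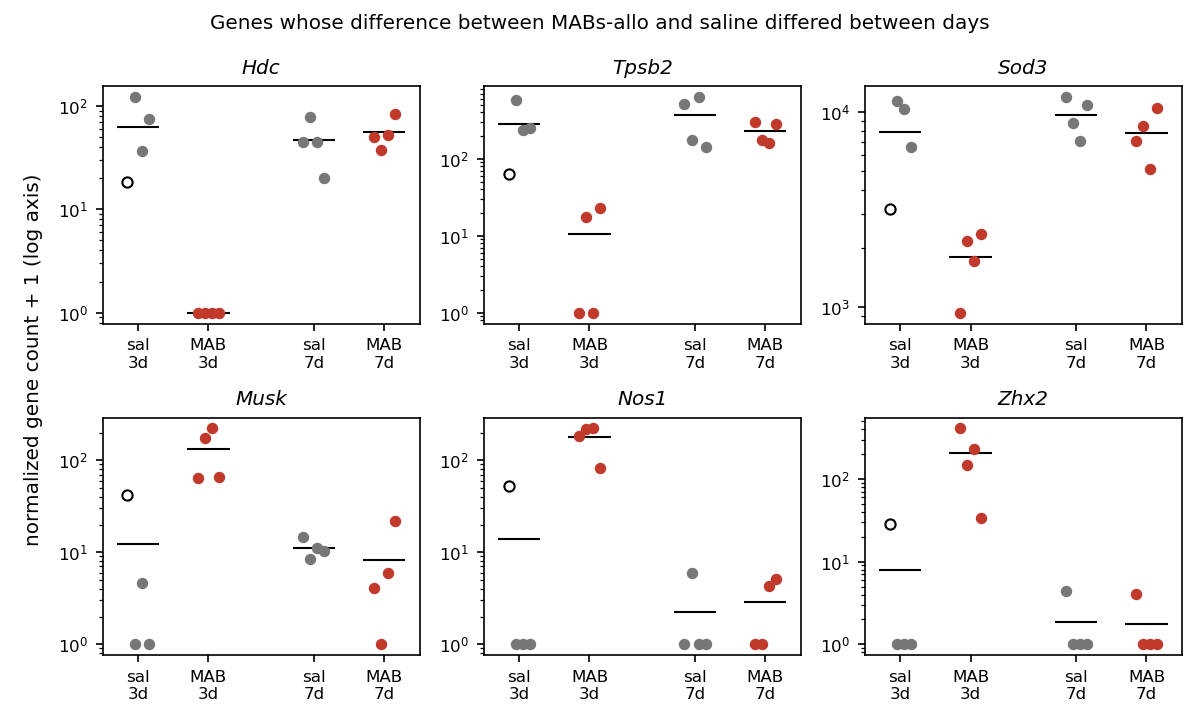
Normalized gene count plus 1 (log axis) of 6 genes in saline (grey, replicate 6 at 3d as an open circle) and MABs-allo (red) at 3d and 7d, 4 samples per group, with lines at the group means. The 6 genes were chosen among the 12 named genes whose difference differed between days without saline replicate 6. At 7d the groups overlap at all 6 genes, and at 3d they do not. At Plxna4, Plxnb1 and Arhgef17, which are also among the 12 and are not shown, the groups overlap at 3d.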

How the data were processed

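Libraries were QuantSeq 3ʹ mRNA libraries. The authors trimmed reads with fastq-mcf, aligned them with HISAT2 to Rnor6.0, discarded reads with several alignments, assigned them to genes with HT-seq Count, scaled the counts by DESeq2 size factors, and these normalized gene counts (a signal per gene) were deposited for 32883 genes and 24 samples. Within a tolerance of 0.01, 100% of the deposited values were whole multiples of 1 read per sample, which gave back whole reads. QuantSeq counts 1 fragment end per transcript, so levels are not divided by length.

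Genes with a mean of at least 2 over the 8 samples were kept. Log2 values (pseudocount 1) were fitted with limma 3.58.1 in R 4.3.3 (trended variances, 6 groups together), and Benjamini-Hochberg adjusted p-values over all 16474 genes were used, with calls at an adjusted p below 0.05 and an absolute log2 fold change above 1. Recovered reads were tested with edgeR 4.0.16, which called 1380 genes, and DESeq2 1.42.0, which called 1922. Fitted fold changes of low genes depend on the pseudocount, which is less than 1 read, and can exceed what the reads bear out. Hdc was 49.8-fold lower in the fit with all 8 samples, against a bound of 3.04-fold. Bounds use 3 reads per sample. Shares of reads were compared by two-sided exact permutation tests. Scripts were tested on simulated data. Alternatives covered the pseudocount, filter, scaling, sample weights, groups in the fit and each replicate left out.

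Samples were grouped by their labels. The comparison, members and lists were chosen with earlier results of these data known, and the ribosomal protein list was amended after gene symbols were seen. Genes named are the 8 largest rises and falls without overlap at a mean of at least 20, up to 5 called and 2 other members per list, the genes the study displayed, and cell type markers. Counts without saline replicate 8 were chosen after seeing the data. Some genes are not reported here.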

Additional observations from a re-analysis of the deposited data

Results flagged for a closer look

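Of 318 groups of 4 samples tested for a sample far from the other 3 (gap to the nearest sample over the group's range above Dixon's 95% critical value), 49 had one, or 15.4%. Chance gives about 5% for normally distributed values, but normalized counts without a log were tested here. A group with 0 in all samples but 1, as at Nos1 and Zhx2 in saline, is always flagged. The 15.4% therefore cannot be read against 5%. Most flagged samples were 1 of 2 saline samples. These flags share samples and are not independent.

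Saline replicate 6 was far above the other 3 saline samples at Nos1 (51.6 normalized counts), Setd1b (55.1), Nid1 (8233), Arhgap31 (65.4), Zhx2 (27.5), Ncoa3 (151.5), Eya1 (41.3), Pm20d2 (99.9), Plxna4 (75.8), Arhgap26 (199.7), Pgm5 (51.6), Dnmt3a (344), Plxnb1 (44.8), Robo1 (138), Musk (41.3), Mir675 (13.8), Cd34 (771), Thbs1 (789), Met (444) and Arhgef17 (96.4). Each of these genes was called higher after MABs-allo, so the value of replicate 6 lay toward MABs-allo. At LOC501233, which was called lower, replicate 6 was far below the others (17.2).

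Saline replicate 8 was far above the other saline samples at Aplnr (2814 normalized counts), Cxcl14 (12088), Anpep (5103), Plvap (6918), Lyve1 (11187), Nfasc (153), RT1-DMa (623) and Mcpt1l1 (2481), and far below them at Cdc42 (3677) and Rock1 (3300.3). It was high in the summed levels of cytokine and chemokine genes (51645) and of Schwann cell genes (62851), low in that of urothelial and keratin genes (7722), and high in the share of reads on Mt- genes (17.2%). Saline replicate 10 was apart at Mymx (24.6) and in the share of reads on the other AY172581 entries (0.0205%).

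Among MABs-allo samples, replicate 1 was apart at Cdk12 (4842), at Gata2 (6362) and in the summed mast cell list (7398), which Gata2 dominates. Replicate 2 was apart at Selp (509), Igf2 (509) and Pcna (1018), replicate 3 at Cd74 (4514), Hdac4 (2031) and Myh8 (21039), and replicate 4 at LOC501233 (10.8), Nfasc (5.42) and the share of reads on Mt- genes (17.6%).

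Without saline replicate 6, the difference between MABs-allo and saline differed between 3d and 7d for 12 of the 113 named genes, by limma with Benjamini-Hochberg adjustment. Of all genes tested, 0.783% did so. Many of the named genes were chosen by the size of their 3d difference in these samples, so the count is not a result about them. The difference at 3d minus that at 7d, on the log2 scale, was 6.89 for Nos1, 6.92 for Setd1b, 7.23 for Zhx2, 6.28 for Plxna4, 6.18 for Plxnb1, 3.31 for AY172581.9, 7.28 for Musk, 6.53 for Mir675 and 7.397 for Arhgef17. It was -2.11 for Sod3, -6.48 for Hdc and -5.73 for Tpsb2. With all samples 0 of these differences passed in limma.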

How the results depend on the processing

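The 2021 calls with all 8 samples became 1064 with group quality weights, 5 in a fit of only both groups and 0 in a fit of the 3 groups of 3d, 2998 without saline replicate 6 and VEGF-transduced replicate 4, and 374 to 2859 when 1 replicate was left out. The 2859 calls without saline replicate 6 became 1758 and 1835 in these smaller fits, and 1186 to 3198 when another replicate was left out. These smaller fits take the spread from fewer groups. The cause of the changes was not tested. The split of calls was 76.7% higher with all 8 samples, 52.5% after scaling to the same total, 56.3% after quantile normalization and 66.5% in edgeR, and without saline replicate 6 it was 75.9%, 57.8% and 54.96%. With the 2 largest AY172581 entries left out of the total, a choice made after seeing the data, 1905 genes were called, 74.2% of them higher.

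For the difference between days, 0 genes with all samples became 296 with sample quality weights, 95 in DESeq2, 592 without saline replicate 6 and VEGF-transduced replicate 4, and 0 to 129 when 1 replicate was left out. The 129 genes without saline replicate 6 became 413 with a pseudocount of 5, 35 after scaling to the same total, 712 with sample quality weights, 320 with only the groups compared, 592 also without VEGF-transduced replicate 4, 24 in edgeR, 560 in DESeq2, 36 without MABs-allo 7d replicate 7.2, and 1 to 545 when another replicate was left out. Of the named genes, 100 were called with all 8 samples and 0 of these in every alternative, and 99 were called without saline replicate 6 and 58 of these in every alternative.

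Without saline replicate 6 the difference in reads was -1509274 and in the share of the 2 AY172581 entries 17.4 percentage points, both at p = 0.0571, the smallest that an exact permutation of 4 against 3 allows. Mt-atp6, not called, had a log2 fold change of -0.19 after scaling to the same total and -1.01 after quantile normalization (-0.17 and -1.27 without saline replicate 6), and it ran from -0.20 to 0.24 when 1 replicate was left out (-0.17 to 0.33 without saline replicate 6 as well), below 0 without MABs-allo replicate 4 or saline replicate 9. Kit, not called, ran from -0.29 to 0.029 and from -0.18 to 0.13 in the same way, above 0 without MABs-allo replicate 2 or, with replicate 6 out as well, saline replicate 8. The median of the axon list turned to -0.18 after scaling to the same total, and that of the hypoxia list to -0.07. No paired analysis was possible because the groups compared share no replicate numbers at 3d. Values below about 3 reads per sample limit the low genes.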
